A study of Mus musculus with 18 samples.

Results

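The 10 transcription factors examined mark mesenchymal cells, and were measured in mouse embryonic fibroblasts (MEFs). They are Twist1, Twist2, Prrx1, Prrx2, Snai1, Snai2, Zeb1, Zeb2, Tcf21 and Osr1. They were chosen by name, with earlier results of these data known. Each was found by its symbol in the deposited table, which gave 10 of 51499 assembled loci. The cells were labelled Ago2+/+ or Ago2-/-, where Ago2 encodes the Argonaute protein that carries microRNAs to their targets. Each kind of cell received DMSO (the solvent), tunicamycin, which blocks N-glycosylation in the endoplasmic reticulum (ER), or 500 nM thapsigargin, an inhibitor of the pump that fills the ER with calcium. The resulting 6 groups are Ago2+/+ DMSO, Ago2+/+ tunicamycin, Ago2+/+ thapsigargin, Ago2-/- DMSO, Ago2-/- tunicamycin and Ago2-/- thapsigargin, with 3 RNA libraries each and 18 in all. Both kinds of cell came to the study as lines from another laboratory; per its reporting notes the lines were not authenticated, but the Ago2-/- cells were tested by western blot for absence of Ago2 protein.

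The unit throughout is FPKM, fragments scaled by transcript length and by the number of mapped fragments, which corrects for gene length. The table gives 1 FPKM per group and locus, made by the authors over that group's libraries. No replicate error can therefore be attached to any value or difference reported here, no test was run, and the depth of the libraries is unknown. Whether a difference between groups exceeds the spread between replicates cannot be told from these values. In bulk RNA, fewer cells that use a gene and less of its RNA per cell cannot be told apart either.

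The labels need care. The Ago2+/+ groups are called DCR1 in the titles and in the table, and 4 libraries carry genotype labels that disagree with each other. The Ago2 transcript itself read 22.1 FPKM with DMSO, 5.75 with tunicamycin and 17.01 with thapsigargin under the label Ago2+/+. Under the label Ago2-/- the 3 values were 5.61, 15.5 and 20.7 FPKM. Ago2 RNA was thus as high in 2 groups labelled as knockouts as in groups labelled wild type, and it was low in 1 group of each label. The sources used here do not say which part of the gene is deleted, so transcript level alone does not check the genotype. Every group is called here by its label only.

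Over all other loci averaging at least 1 FPKM, the 15 possible pairs of groups fell into close and distant ones. The 3 closest pairs each crossed both labels. They were Ago2+/+ thapsigargin with Ago2-/- tunicamycin, Ago2+/+ tunicamycin with Ago2-/- DMSO, and Ago2+/+ DMSO with Ago2-/- thapsigargin. Their Spearman's rho across 11920 loci lay between 0.977 and 0.985, against 0.876 to 0.906 in the other 12 pairs. Those figures describe profiles across genes, which are not independent replicates. Vim, the intermediate filament of mesenchymal cells, lay between 952 and 2634 FPKM in all groups, whereas the fibroblast surface marker Thy1 was listed at 0 in all of them. Of 10 fibroblast markers, 7 had a mean of at least 1 FPKM. All 6 endothelial markers and 5 of 6 blood and macrophage markers were below 1 FPKM in every group.

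The factors belong to a few families of DNA-binding repressors and activators that are best known from mesoderm, neural crest and limb development. Twist1 and Twist2 are basic helix-loop-helix proteins that pair with the E proteins encoded by Tcf3, Tcf4 and Tcf12 and bind E-boxes. The zinc-finger proteins Snai1 and Snai2, and the zinc-finger homeodomain proteins Zeb1 and Zeb2, bind a subset of E-boxes and repress epithelial genes such as Cdh1, which encodes E-cadherin. Prrx1 and Prrx2 are paired-type homeodomain proteins of limb and craniofacial mesenchyme. Osr1 and Tcf21 mark mesenchymal progenitors of the kidney, heart and other organs.

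In the GRCm38 build, Twist1 lies on chromosome 12 (33957671 to 33959829, plus strand) and Osr1 on the same chromosome (9570116 to 9581500, plus strand). Twist2 lies on chromosome 1 (91801461 to 91848028, plus strand), as does Prrx1 (163245119 to 163313710, minus strand). Chromosome 2 holds 3 of the factors, Prrx2 (30834972 to 30881251, plus strand), Snai1 (167538195 to 167542814, plus strand) and Zeb2 (44983632 to 45117395, minus strand). Snai2 is on chromosome 16 (14705852 to 14709385, plus strand), Tcf21 on chromosome 10 (22817281 to 22820174, minus strand) and Zeb1 on chromosome 18. All are protein-coding genes, and each value covers the whole locus. The Zeb2 locus also holds the microRNA gene Mir5129. The 2 other loci in its span, which hold Zeb2os among other genes, reached at most 2.03 FPKM.

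A mean was taken over the groups for each factor. In 9 of the 10 it was at least 1 FPKM, and in Tcf21 it was not. The factors were of middling abundance. Among the 11929 loci that reached that mean, the median percentile of the 9 factors ran from 47.1 in the group labelled Ago2+/+ DMSO to 62.3 in Ago2+/+ thapsigargin. Their summed level was lowest in Ago2+/+ DMSO (129 FPKM) and highest in Ago2+/+ tunicamycin (283 FPKM). The group labelled Ago2-/- DMSO was close to the latter at 267 FPKM, and Ago2-/- thapsigargin came next to the bottom at 160 FPKM.

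**Figure D1:**
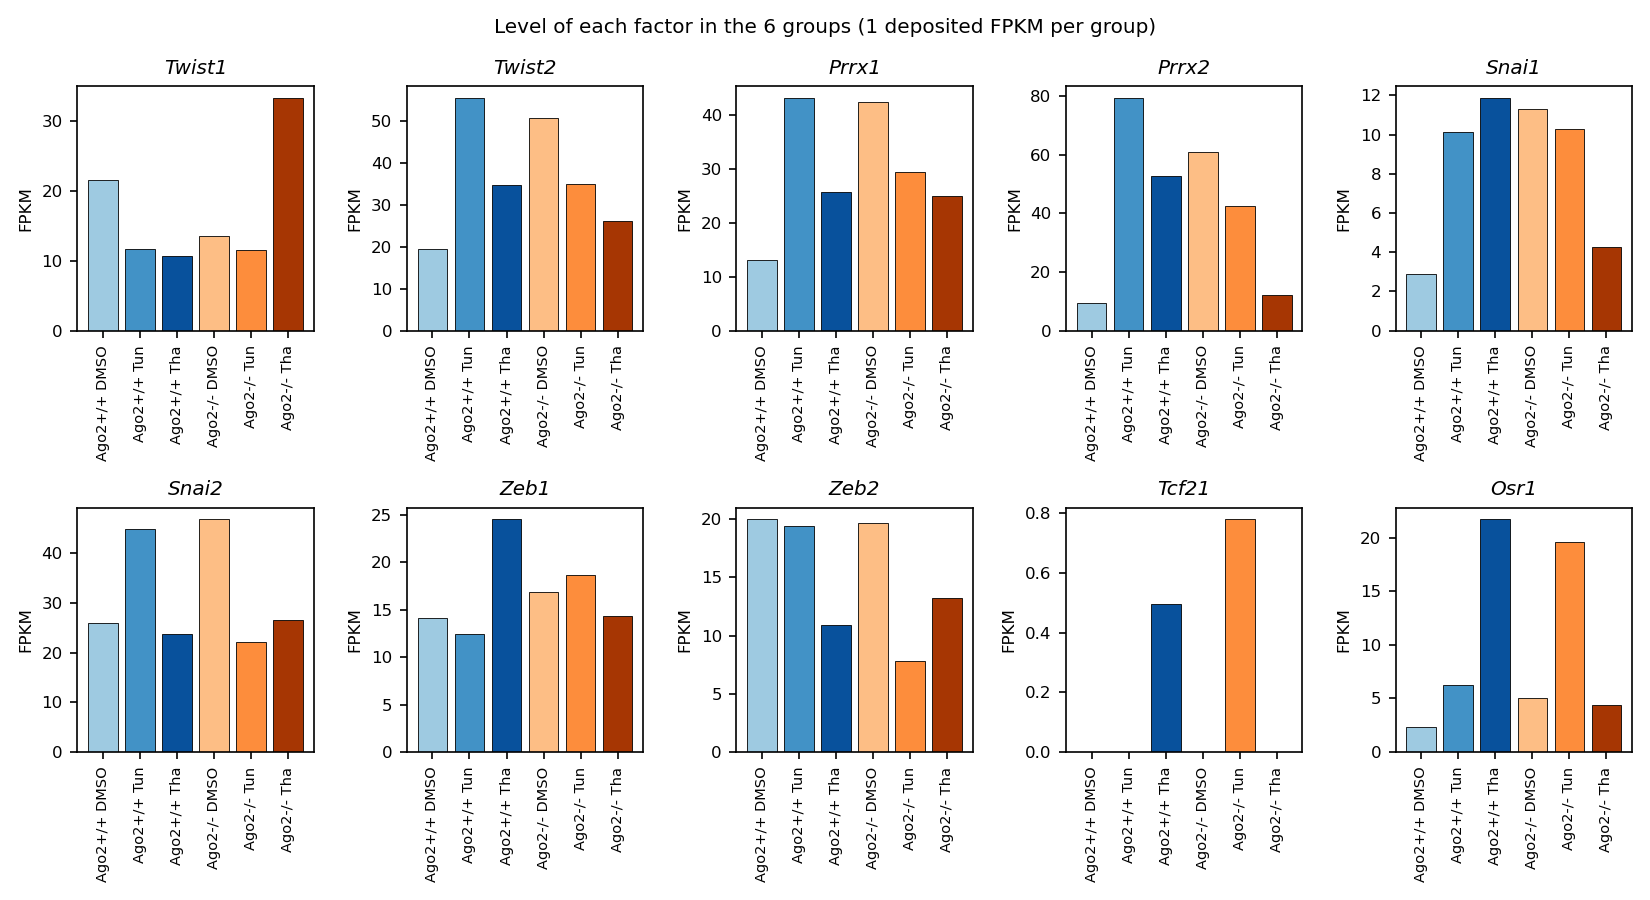
Level of each of the 10 factors (vertical axis, FPKM from 0, scaled to each gene) in the 6 groups (horizontal axis; Tun, tunicamycin; Tha, thapsigargin); each bar is the 1 deposited value of a group, so there are no error bars. Twist1 was highest in the group labelled Ago2-/- thapsigargin at 33.4 FPKM, while Prrx2 was lowest in Ago2+/+ DMSO at 9.40 FPKM and Osr1 exceeded 19 FPKM only in Ago2+/+ thapsigargin and Ago2-/- tunicamycin.

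Twist1, which is needed for cranial mesenchyme and for limb outgrowth, was measured at 21.5 FPKM with DMSO, 11.7 with tunicamycin and 10.7 with thapsigargin under the label Ago2+/+. Under the label Ago2-/- it stood at 13.5 FPKM with DMSO, 11.6 with tunicamycin and 33.4 with thapsigargin. The values of 4 groups lay close together between 10.7 and 13.5 FPKM, and Ago2+/+ DMSO and Ago2-/- thapsigargin stood above them. Twist2, a relative known from dermal fibroblasts, ran the other way in those groups. Its levels were 19.5, 55.5 and 34.8 FPKM in Ago2+/+ with DMSO, tunicamycin and thapsigargin, and 50.7, 35.1 and 26.2 FPKM in Ago2-/- with the same agents. Twist2 was thus lowest where Twist1 was high. The ratio of Twist2 to Twist1 was 0.785 in Ago2-/- thapsigargin and 0.907 in Ago2+/+ DMSO, and between 3.02 and 4.75 in the other 4 groups. A ratio inside a group does not depend on how the group was scaled.

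Prrx1 in the Ago2+/+ groups read 13.2 FPKM with DMSO, 43.2 with tunicamycin and 25.7 with thapsigargin. The Ago2-/- groups read 42.4 FPKM with DMSO, 29.5 with tunicamycin and 25.01 with thapsigargin. Its order over the groups was the same as that of Twist2, from Ago2+/+ tunicamycin down to Ago2+/+ DMSO. Prrx2, its paralogue, varied more than Prrx1. Under the label Ago2+/+ its values were 9.40, 79.5 and 52.6 FPKM with DMSO, tunicamycin and thapsigargin. They were 60.9, 42.6 and 12.2 FPKM under Ago2-/- with the same agents. The highest level was 8.46 times the lowest. Levels in 4 groups exceeded 42 FPKM and 2 were below 13 FPKM, with nothing between them. The summed level of Prrx1 and Prrx2 varied 5.44-fold, and Prrx1 made up 67.2% of it in Ago2-/- thapsigargin but 32.8% in Ago2+/+ thapsigargin.

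Snai1, the repressor of E-cadherin whose protein is short-lived, was the less abundant of the SNAIL pair in every group. The Ago2+/+ groups had 2.90 FPKM with DMSO, 10.1 with tunicamycin and 11.9 with thapsigargin. Its levels under the label Ago2-/- were 11.3 FPKM with DMSO, 10.3 with tunicamycin and 4.27 with thapsigargin. Levels in 4 groups lay within 10.1 to 11.9 FPKM and the 2 others fell well below. These were the same 2 groups in which Prrx2 was lowest.

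Snai2, known for its role in neural crest migration, read 26.0, 44.8 and 23.8 FPKM in Ago2+/+ with DMSO, tunicamycin and thapsigargin. In Ago2-/- it read 46.9, 22.2 and 26.6 FPKM. Levels in 2 groups stood near 45 FPKM, namely Ago2+/+ tunicamycin and Ago2-/- DMSO, and the other 4 lay between 22.2 and 26.6 FPKM. The share of Snai1 in the sum of both ran from 10.01% in Ago2+/+ DMSO to 33.3% in Ago2+/+ thapsigargin.

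SNAIL proteins are known to bind E-boxes in the Snai1 promoter itself, and the promoter is printed here because Snai1 fell into 2 clear levels. The window runs from 250 bases before to 50 after the RefSeq start, at chr2:167537945-167538244 on the plus strand of GRCm38.p6, with the E-box in capitals.
Snai1 promoter: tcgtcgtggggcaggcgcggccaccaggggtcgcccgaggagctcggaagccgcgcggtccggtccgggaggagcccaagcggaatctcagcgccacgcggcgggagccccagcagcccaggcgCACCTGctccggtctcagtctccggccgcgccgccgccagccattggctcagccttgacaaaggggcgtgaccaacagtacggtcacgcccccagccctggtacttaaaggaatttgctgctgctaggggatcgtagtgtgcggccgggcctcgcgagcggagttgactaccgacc
RefSeq windows of this length were used for 7 of the 10 factors, without Osr1, Snai2 and Zeb1. Zeb2 had 4 of them, which made 10 windows. Because 2 of the Zeb2 windows overlap over most of their length, these are not 10 separate promoters. The E-box CANNTG, which reads the same on both strands, occurred in 1 of these 10, the one of Snai1, and in 72.3% of all 32851 windows. Its form CACCTG on either strand, a subset of the former, occurred in the same single window and in 20.2% of all. A match of letters is a description of the window and no evidence of binding.

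Zeb1 had the smallest range of the 9 factors on the log2(FPKM + 1) scale. It stood at 14.1, 12.5 and 24.6 FPKM in Ago2+/+ with DMSO, tunicamycin and thapsigargin, and at 16.9, 18.7 and 14.4 FPKM in Ago2-/-. Only Ago2+/+ thapsigargin stood clear of the rest. Zeb2 was measured at 20.0, 19.4 and 10.9 FPKM in Ago2+/+ and at 19.7, 7.78 and 13.2 FPKM in Ago2-/-, in the same order of agents. Levels in 3 groups lay within 1 FPKM of each other near 20 FPKM, and Ago2-/- tunicamycin was lowest. Zeb1 made up 69.2% and 70.6% of the ZEB sum in Ago2+/+ thapsigargin and Ago2-/- tunicamycin, against 39.1% to 52.1% elsewhere. That sum itself was the most even of the 4 paralogue pairs, with a 1.38-fold spread.

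Both ZEB genes are classic targets of the miR-200 family, whose members silence them in epithelial cells through sites in the 3′ UTR. The mature sequences from RefSeq are shown with the seed (bases 2 to 8) in capitals, because the 5 family members fall into 2 groups by seed.
mmu-miR-200a-3p: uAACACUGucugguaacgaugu
mmu-miR-141-3p: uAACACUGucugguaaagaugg
mmu-miR-200b-3p: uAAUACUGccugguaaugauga
mmu-miR-200c-3p: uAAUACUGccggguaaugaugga
mmu-miR-429-3p: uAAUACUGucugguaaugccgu
In the longest annotated 3′ UTR of Zeb2 (4941 bases, GENCODE), 9 matches to these seeds were found, 4 to the seed of miR-200a and miR-141 and 5 to that of miR-200b, miR-200c and miR-429. Of each kind 2 are printed on the transcript strand, which is the minus strand of chromosome 2, with the match in capitals.
Zeb2 site at chr2:44988357-44988379: tgcaaaaattttgtaCAGTGTTa
Zeb2 site at chr2:44987825-44987847: agtgccatccttgtaCAGTGTTc
Zeb2 site at chr2:44988173-44988195: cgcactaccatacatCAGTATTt
Zeb2 site at chr2:44988108-44988130: cgcactacagtgcatCAGTATTa

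The 3′ UTR of Zeb1 (2401 bases) also held 9 such matches, 4 and 5 of the same kinds. Among 10748 genes averaging at least 1 FPKM with an annotated 3′ UTR, only Zeb1 and Zeb2 had 9 or more, which is 0.0186% of them. By length, 4.49% of those 3′ UTRs were at least as long as that of Zeb2 and 23.5% at least as long as that of Zeb1. Snai2 had 2 matches in 1089 bases and Snai1 had 1 in 731 bases, and 10.9% and 30.8% of genes had at least as many. The other 6 factors had none, including Prrx1 with a 3′ UTR of 4891 bases. The loci of the miR-200 family and of miR-205 were nearly silent in the table. Of these 6 loci, 4 were listed at 0 in every group, and the highest value was 0.0764 FPKM in Ago2+/+ thapsigargin, for a locus that holds Mir141 together with Gm29008. The table measures long RNA, so mature microRNAs are not covered by these values.

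Osr1 and Prrx2 had the widest ranges of the factors, and their order depends on the scale. The highest FPKM of Osr1 was 9.17 times its lowest, against 8.46 for Prrx2, while Prrx2 leads on log2(FPKM + 1). It was at 2.37, 6.26 and 21.7 FPKM in Ago2+/+ with DMSO, tunicamycin and thapsigargin, and at 5.07, 19.6 and 4.36 FPKM in Ago2-/-. The values of Ago2+/+ thapsigargin and Ago2-/- tunicamycin were at least 3 times those of any other group. Tcf21 was detected in the same 2 groups only, at 0.497 and 0.780 FPKM, and was listed at 0 in the other 4. With no depth known, such low values say little, and Tcf21 is left out of the counts that follow.

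**Figure D2:**
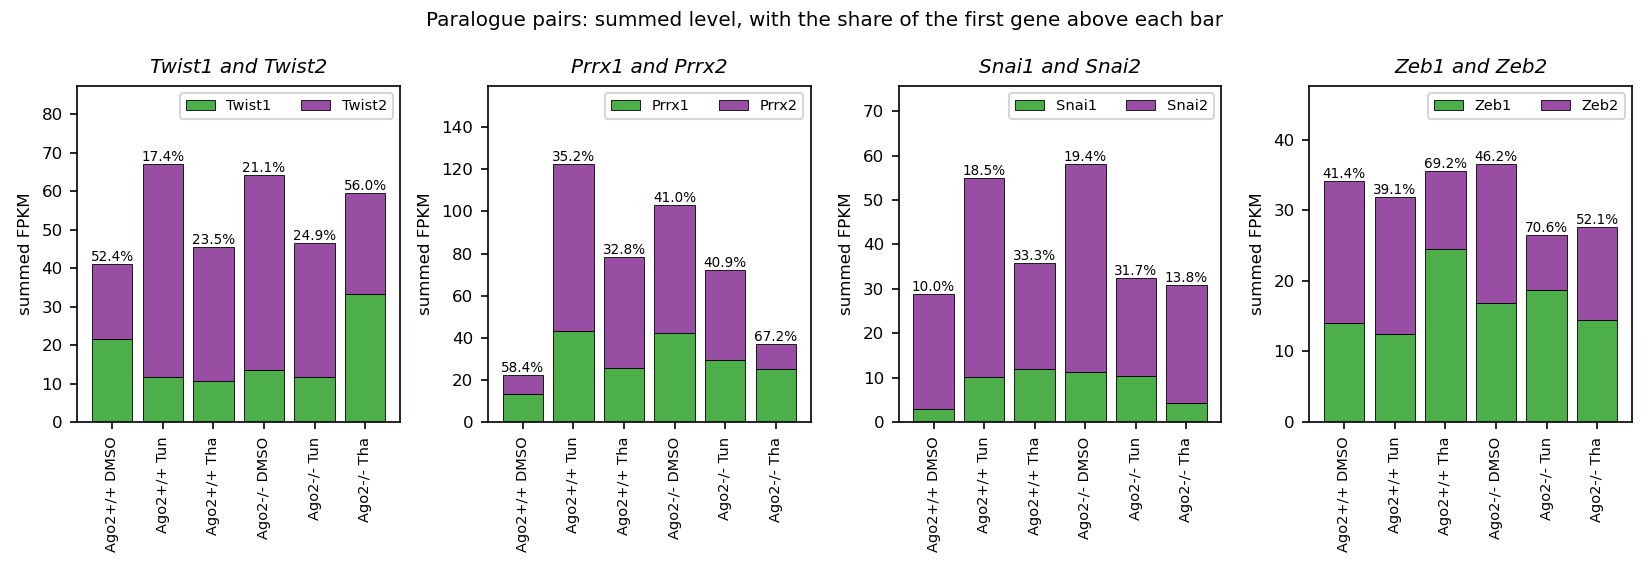
Summed level of each paralogue pair (vertical axis, FPKM from 0) in the 6 groups (horizontal axis), split into the first gene (green) and the second (purple), with the percentage of the first gene above each bar. The share of Twist1 ran from 17.4% to 56.0%, that of Prrx1 from 32.8% to 67.2%, that of Snai1 from 10.01% to 33.3% and that of Zeb1 from 39.1% to 70.6%.

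Exact stretches shared by paralogues were counted. Between the annotated transcripts of Twist1 and Twist2, of Prrx1 and Prrx2, and of Snai1 and Snai2, no stretch of 25 bases was shared. Zeb1 and Zeb2 shared 2 stretches of 25 bases and none of 50 bases.

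Differences between groups were taken on the log2(FPKM + 1) scale, which understates changes of low genes, and a difference of at least 1 in size is called past 2-fold. The background is the share of the 11929 loci past the same limit. The comparisons of both stressors with DMSO asked how the factors differ under ER stress. Comparisons of 2 stressors with 1 DMSO group share that group, so their values are given side by side only.

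Under the label Ago2+/+, 5 of 9 factors were past 2-fold with tunicamycin, all higher than with DMSO, where 14.0% of all loci were past it in either direction. These were Prrx2 (2.95), Prrx1 (1.64), Snai1 (1.52), Twist2 (1.46) and Osr1 (1.11), the values being differences on the log2 scale. The median difference of the 9 factors was 1.11, against 0.01 over all loci. With thapsigargin in the same cells 3 of 9 were past 2-fold, again all higher, where 12.9% of all loci were. Osr1 was higher by 2.75, Prrx2 by 2.37 and Snai1 by 1.73. Twist1 was the factor with the most negative difference in both comparisons, at -0.83 with tunicamycin and -0.95 with thapsigargin, neither past the limit, though after rescaling to 1 common sum of FPKM the values were -1.02 and -1.08.

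Under the label Ago2-/-, tunicamycin against DMSO put 3 of 9 factors past 2-fold, where 17.9% of all loci were. Osr1 was higher by 1.77, while the differences of Zeb2 and Snai2 were -1.24 and -1.05. Thapsigargin against DMSO also put 3 of 9 past it, where 14.3% of all loci were. Twist1 was higher by 1.24, and Prrx2 and Snai1 had differences of -2.23 and -1.22. The medians over the 9 factors were -0.50 with tunicamycin and -0.74 with thapsigargin, against 0.00 and -0.02 over all loci. The factors therefore sat mostly above DMSO under one label and mostly below it under the other.

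Prrx2 and Snai1 were past 2-fold in opposite directions with thapsigargin under the 2 labels. Of all loci, 4.69% did so with thapsigargin and 6.81% with tunicamycin, and none of the 9 factors did so with tunicamycin. The DMSO groups that enter these contrasts differed as well. Prrx2 read 9.40 FPKM in Ago2+/+ DMSO and 60.9 in Ago2-/- DMSO, and Snai1 read 2.90 and 11.3 FPKM.

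Comparing labels within an agent asked how the factors differ between cells labelled with and without Ago2. With DMSO, 4 of 9 factors were past 2-fold, all higher in the group labelled Ago2-/-, where 14.4% of all loci were. The differences were 2.57 for Prrx2, 1.66 for Snai1, 1.61 for Prrx1 and 1.33 for Twist2. With tunicamycin, 2 of 9 were past it, where 17.3% of all loci were, with Osr1 higher by 1.51 in Ago2-/- and Zeb2 at -1.22. With thapsigargin, 4 of 9 were past it, where 13.8% of all loci were. Twist1 was higher by 1.56 in Ago2-/-, and the differences of Osr1, Prrx2 and Snai1 were -2.08, -2.02 and -1.29. No factor kept a difference past 2-fold of 1 sign across all 3 agents.

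**Figure D3:**
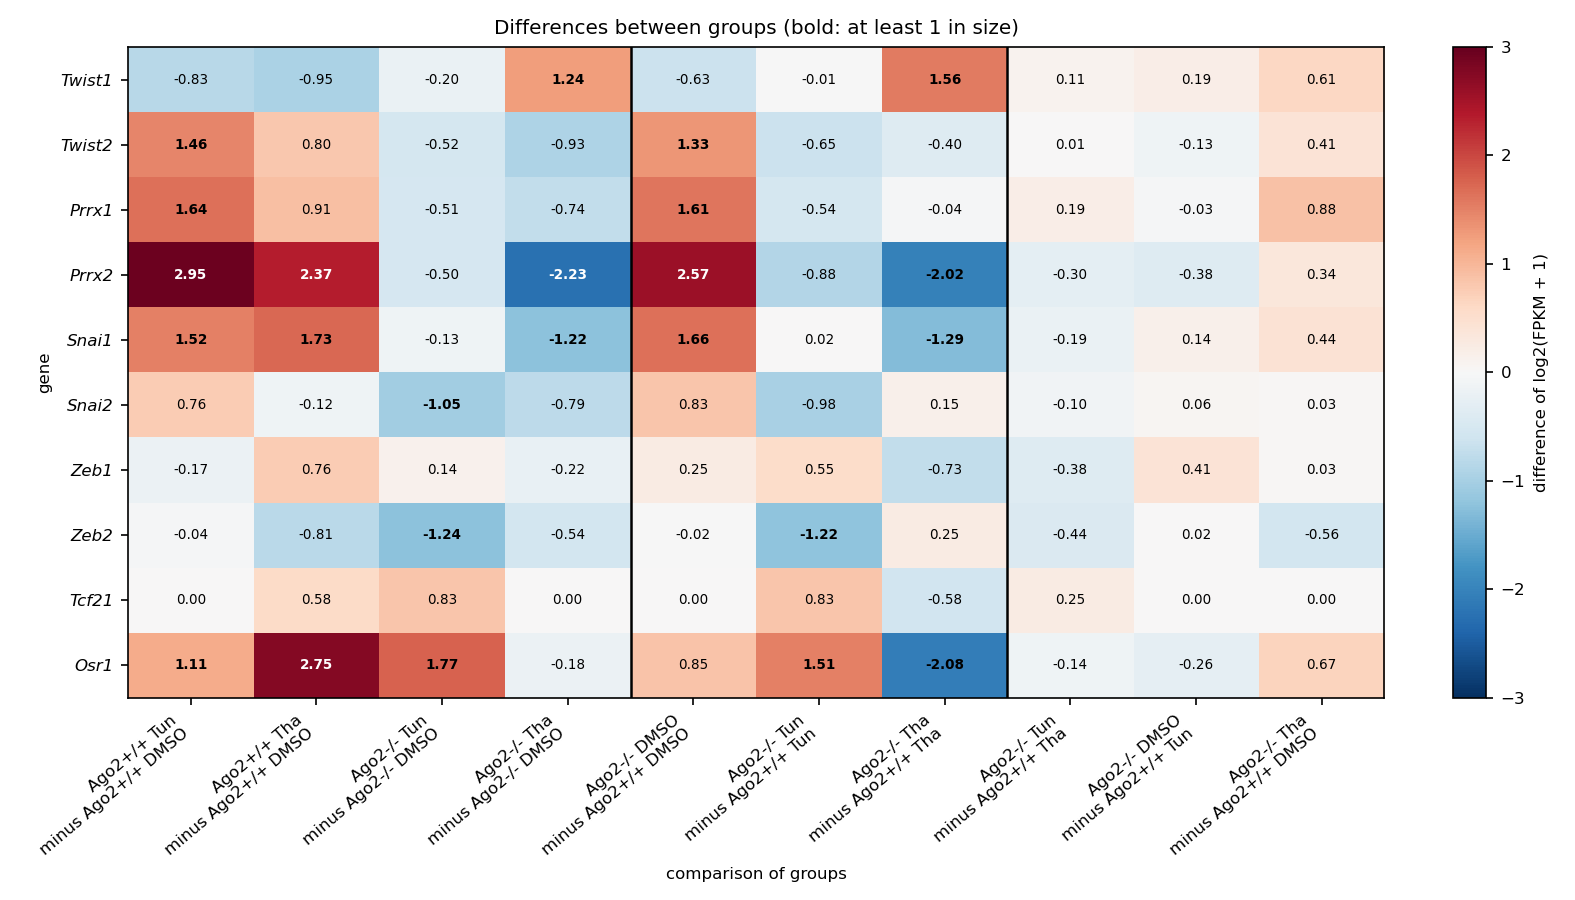
Differences of log2(FPKM + 1) (colour and printed value, bold from 1 in size) for the 10 factors (rows) in 10 comparisons of groups (columns): stressor with DMSO, then label within agent, then the 3 pairs of most similar groups, parted by black lines. Prrx2 reaches 2.95 and -2.23 in the first block, and no factor reaches 1 in the third, where the largest value is 0.88 for Prrx1.

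In the 3 pairs of most similar groups no factor was past 2-fold. In Ago2-/- tunicamycin against Ago2+/+ thapsigargin, 0.998% of all loci were past it, and the largest factor difference was that of Zeb2 at -0.44. In Ago2-/- DMSO against Ago2+/+ tunicamycin, 1.04% of all loci were past it, and Zeb1 differed most at 0.41. In Ago2-/- thapsigargin against Ago2+/+ DMSO, 1.87% of all loci were past it, and Prrx1 differed most at 0.88, from 13.2 to 25.01 FPKM. The other 12 pairs of groups each had 1 to 5 of the 9 factors past 2-fold. With so few loci past the limit, 0 of 9 is near the background. The median size of the 9 factors' differences in the 3 pairs was 0.19, 0.14 and 0.44, in the order given, against 0.11, 0.08 and 0.15 over all loci. At a limit of 1.5-fold, 3 of 9 factors were past it in the last pair, where 5.62% of all loci were. The part that mixed labels play in these differences was not tested.

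Over all 6 groups, the highest and the lowest level differed by at least 2-fold for 8 of the 9 factors, where 32.3% of all loci did, and Zeb1 was the exception at 0.93. Rescaling all groups to 1 common sum of FPKM put Zeb1 at 1.01 and Snai2 at 0.92. The median range of the 9 factors was 1.56 on the log2 scale, against 0.73 over all loci. Prrx2 (2.95) and Osr1 (2.75) led, followed by Snai1 (1.73), Prrx1 (1.64), Twist1 (1.56), Twist2 (1.46), Zeb2 (1.26) and Snai2 (1.05).

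Genes for proteins that act with these factors were described by list. Of 13 listed E-box partners and Id inhibitors, 12 were found and 7 had a mean of at least 1 FPKM, 4 of them with a 2-fold range. The median range of these 7 was 1.04. The E proteins Tcf3, Tcf4 and Tcf12 did not reach it, with ranges of 0.98, 0.86 and 0.24. The 4 that did were Id1, Id2, Id3 and the tendon factor Scx (1.04). Id proteins bind E proteins but not DNA and so hold them away from partners such as Twist. Id1 stood at 117 and 128 FPKM in Ago2+/+ tunicamycin and Ago2-/- DMSO and at 24.0 to 39.9 FPKM elsewhere. Id2 was likewise highest in these 2 groups, at 54.4 and 47.6 FPKM. Id3 was lowest in Ago2+/+ DMSO at 39.0 FPKM and highest in Ago2+/+ thapsigargin at 155 FPKM.

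All 11 listed corepressors of the SNAIL and ZEB proteins had a mean of at least 1 FPKM, and 1 of them had a 2-fold range. It was Ajuba, a LIM protein that binds the SNAIL repressor domain, which ran from 27.1 FPKM in Ago2-/- thapsigargin to 79.8 in Ago2+/+ tunicamycin. Next came the Polycomb genes Suz12 and Eed and the deacetylase gene Hdac2, with ranges of 0.90, 0.87 and 0.84. None of the 7 genes for turnover of SNAIL protein reached a 2-fold range. The F-box genes Fbxw11 and Fbxo11 had ranges of 0.84 and 0.80, and the kinase gene Gsk3b 0.51. The median range was 0.64 in the corepressor list and 0.50 in the turnover list, both under the 0.73 of all loci.

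**Figure D4:**
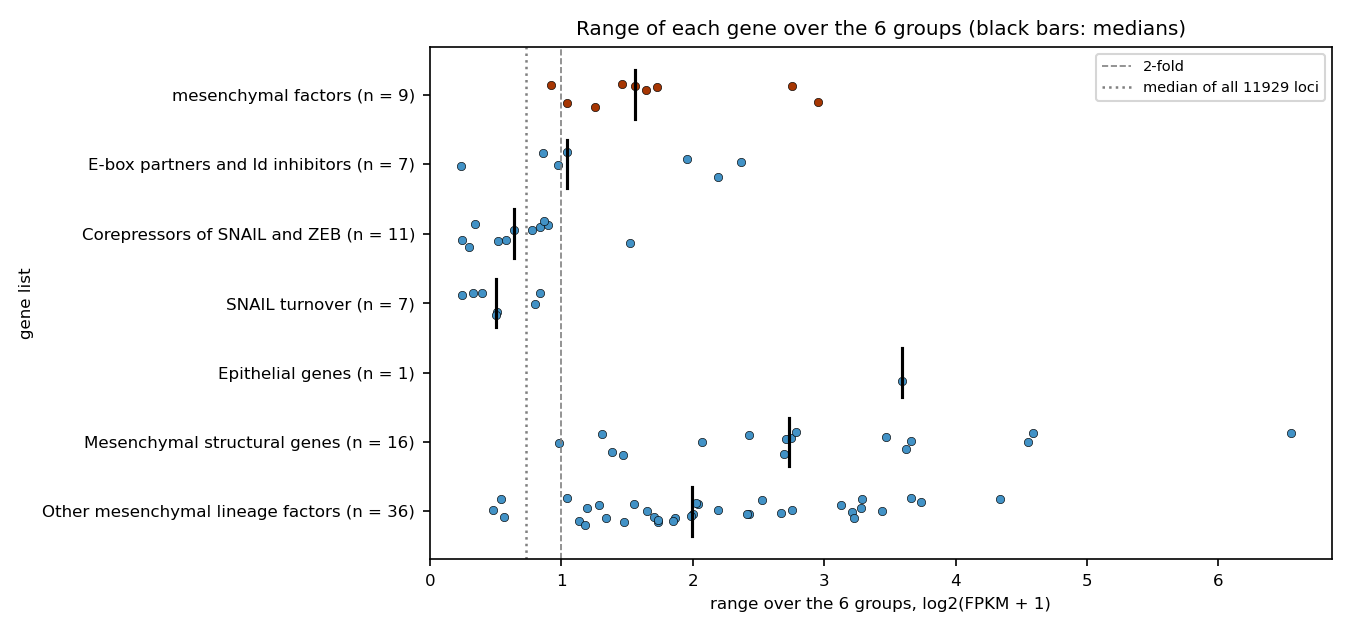
Range over the 6 groups (horizontal axis, highest minus lowest log2(FPKM + 1)) of each gene with a mean of at least 1 FPKM, for the mesenchymal factors (red) and 6 gene lists (blue), with black bars at the medians, a dashed line at 2-fold and a dotted line at the median of 11929 loci. The factors have a median of 1.56, between the corepressors at 0.64 and the mesenchymal structural genes at 2.73.

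The genes that the factors are known to repress or accompany were described next. Of 19 epithelial genes, 15 were below 1 FPKM in every group. Cdh1 reached at most 0.181 FPKM, and Krt19 was the single gene of the list with a mean of at least 1 FPKM. This keratin stood at 15.8 FPKM in Ago2+/+ thapsigargin and 11.7 in Ago2-/- tunicamycin, at 3.43 and 2.81 in Ago2+/+ DMSO and Ago2-/- thapsigargin, and below 1 in the others.

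Mesenchymal structural genes moved more than the factors. Of 16 with a mean of at least 1 FPKM, 15 had a 2-fold range and the median range was 2.73. Col1a1 and Col1a2, the chains of type I collagen, stood at 521 and 410 FPKM in Ago2+/+ thapsigargin and 651 and 577 FPKM in Ago2-/- tunicamycin. In Ago2+/+ tunicamycin and Ago2-/- DMSO, Col1a1 was at 6.77 and 5.97 FPKM and Col1a2 at 26.8 and 23.7 FPKM. The matrix protease gene Mmp2 read 18.9 and 23.5 FPKM in the first 2 groups and below 1 FPKM in all others. Fn1, which encodes fibronectin, was lowest in Ago2+/+ DMSO at 46.4 FPKM and highest in Ago2-/- tunicamycin at 600 FPKM. High type I collagen thus went with high Osr1, and low collagen with high Snai2 and Twist2.

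Among 51 other lineage factors listed, 49 were found, 36 had a mean of at least 1 FPKM and 33 of these had a 2-fold range, with a median of 1.99. Foxf2, a forkhead gene of gut and craniofacial mesenchyme, was highest in Ago2+/+ tunicamycin and Ago2-/- DMSO, at 16.4 and 14.0 FPKM. Shox2, a limb and heart factor, was at 23.8 FPKM in Ago2+/+ DMSO and 31.7 in Ago2-/- thapsigargin, against 1.59 to 3.42 in the others. Tbx3 stood at 9.71 and 9.88 FPKM in Ago2+/+ thapsigargin and Ago2-/- tunicamycin and at 0 or 0.00521 FPKM in Ago2+/+ tunicamycin and Ago2-/- DMSO. Prrx2 and Snai1 were low where Shox2 was high.

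Some markers of other cell types also differed between the groups, while others stayed level or low. The 5 smooth muscle markers summed to 2456 FPKM in Ago2+/+ thapsigargin and 1826 in Ago2-/- tunicamycin, and to 2.25 to 6.51 FPKM in the other groups. Acta2, smooth muscle actin, made up most of it at 1644 and 1252 FPKM, followed by Tagln at 648 and 444 FPKM, Cnn1 at 126 and 105 FPKM and Actg2 at 38.2 and 25.6 FPKM. The fifth, Myh11, the smooth muscle myosin heavy chain gene, stayed between 0.0280 and 0.0730 FPKM in all groups. These are the 2 groups in which Osr1 was high and Tcf21 was detected. In the skeletal muscle list the members did not move together. The muscle determination gene Myf5 read 18.9 FPKM in Ago2+/+ tunicamycin and 11.8 in Ago2-/- DMSO and was listed at 0 in the other 4 groups. Des, which encodes the muscle intermediate filament desmin, stood at 2.95 and 2.58 FPKM in Ago2+/+ DMSO and Ago2-/- thapsigargin. It was lower in Ago2+/+ tunicamycin and Ago2-/- DMSO, at 0.262 and 0.2502 FPKM. Des was also low in Ago2+/+ thapsigargin and Ago2-/- tunicamycin, at 0.397 and 0.499 FPKM, where Myf5 was listed at 0. The defining genes Myod1, Myog and Pax7 were at most 0.0201 FPKM in any group. The skeletal muscle list as a whole summed to 0.397 to 19.2 FPKM over the groups. In the neural and neural crest list, summing to 41.5 to 73.6 FPKM, Sox2 read 5.72 and 5.86 FPKM in Ago2+/+ tunicamycin and Ago2-/- DMSO and at most 0.00399 elsewhere, and Tfap2a read 5.87 and 6.97 FPKM in Ago2+/+ DMSO and Ago2-/- thapsigargin and at most 0.153 elsewhere. The epithelial markers summed to 1.72 to 16.0 FPKM, the endothelial ones to 0.121 to 0.465 FPKM and the blood and macrophage ones to 1.24 to 2.38 FPKM, of which Cd68 had 1.13 to 1.82 FPKM. Whether a mixture of cell types plays a part in the levels of the factors was not tested.

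**Figure D5:**
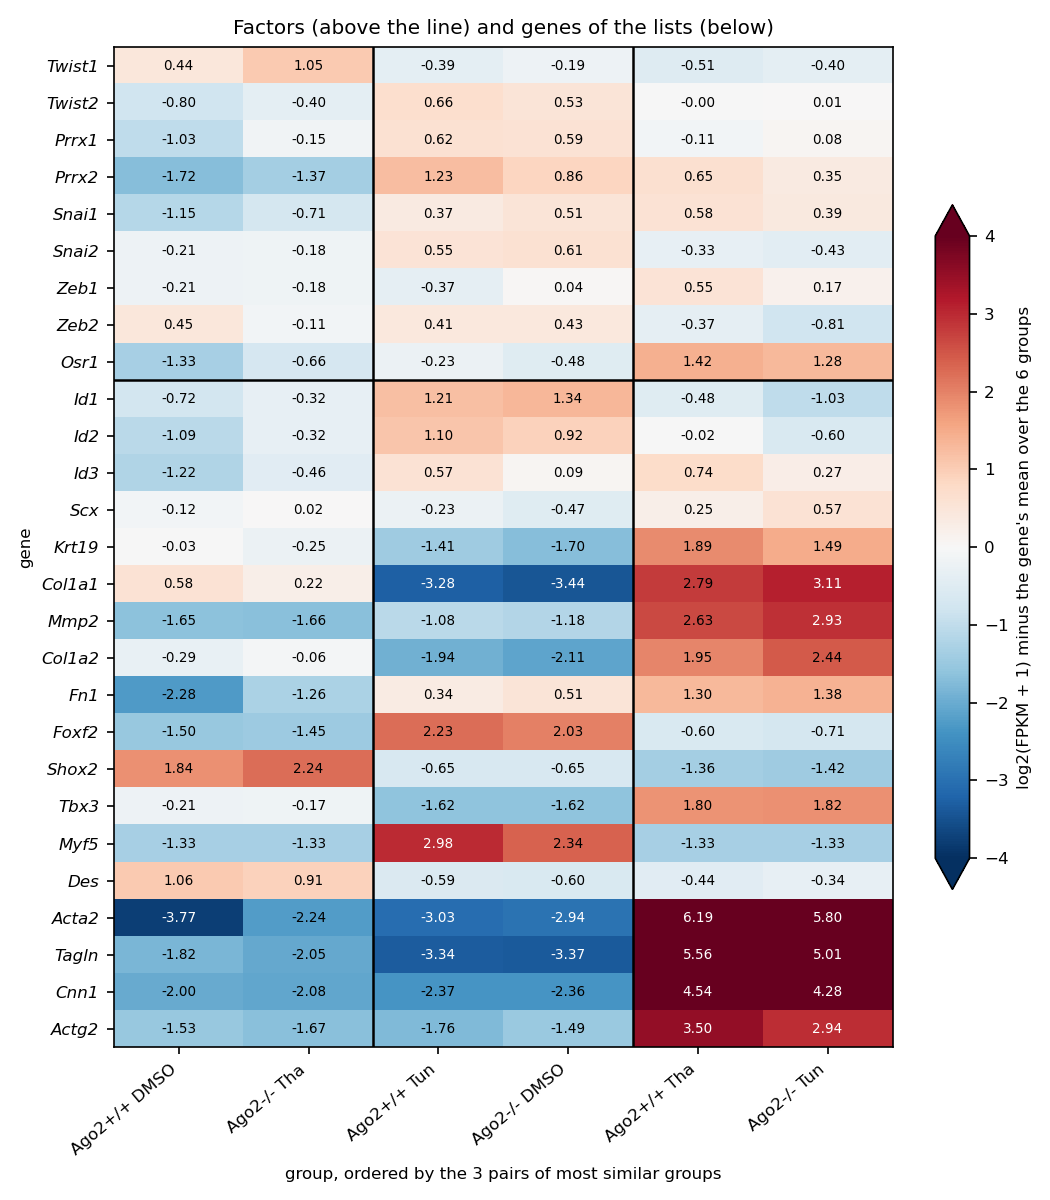
Level of the 9 factors (above the horizontal line) and of the genes named from 6 lists (below it), as log2(FPKM + 1) minus the mean of that gene over the 6 groups (colour and printed value; colours saturate at 4). Columns are the groups, ordered so that the 3 pairs of most similar groups stand side by side; Prrx2 is at -1.72 and -1.37 in the first pair, and Acta2 at 6.19 and 5.80 in the third.

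Genes whose course over the 6 groups was most like that of a factor were sought among 11574 loci with 1 symbol that averaged at least 1 FPKM. The measure was the root mean square difference of centred log2(FPKM + 1) values, where 0 means an equal course. The closest to Twist1 were Rap2b (0.06), Gng8 (0.11) and Rab6b (0.11). Rap2b, a small GTPase gene, stood at 9.54 and 15.3 FPKM in Ago2+/+ DMSO and Ago2-/- thapsigargin and at 4.28 to 5.30 FPKM elsewhere. Closest to Twist2 were Ccdc85b (0.07), Mri1 (0.09) and Khsrp (0.09), and to Prrx1 Lonrf1 (0.09), Ccdc85b (0.13) and Zfp518b (0.14). Twist2 and Prrx1 were also each other's nearest among the factors, at 0.15.

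Prrx2 and Osr1 had the fewest near neighbours, with 12 and 11 loci within 0.25. Prrx1 had 57, Snai1 62, Twist1 71, Twist2 236, Zeb2 325 and Snai2 1081. The limit is an absolute one, and Prrx2 and Osr1 also had the widest ranges. The Prrx2 list was led by Cgref1 (0.13), Gdnf (0.16) and Hoxb4 (0.17). Gdnf, which encodes a neurotrophic factor, read 0.548 and 0.692 FPKM in Ago2+/+ DMSO and Ago2-/- thapsigargin and 5.05 to 7.34 FPKM elsewhere. Hoxb4, a Hox gene, read 0.0127 and 0.00662 FPKM in these 2 groups and 2.90 to 4.96 FPKM elsewhere. The Snai1 list was Stbd1 (0.11), Rps18 (0.12) and the kinase gene Lck (0.13). Rps18, a ribosomal protein gene, has near-identical copies in the genome, so its value is uncertain.

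For Snai2 the nearest were Gm5577, Ubl3 and Ddx31, all at 0.05, and for Zeb2 Esf1, Coq4 and Nop10, all at 0.13. Osr1 had 11 loci within 0.25, led by Tbc1d9 (0.14), Mamld1 (0.15) and Gadd45g (0.19). Gadd45g, a stress-response gene, stood at 59.2 and 41.7 FPKM in Ago2+/+ thapsigargin and Ago2-/- tunicamycin and at 6.84 to 12.4 FPKM elsewhere. Likeness over 6 group values is a description, with groups that resemble each other in pairs.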

How the data were processed

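RNA from 18 libraries of MEFs was sequenced by the authors. Per their methods, reads were mapped with HISAT2 to Ensembl release 91, transcripts were assembled with StringTie under that annotation, and genes were quantified and compared with Cufflinks. The submitters' processing notes name HISAT2 2.1.0, StringTie 1.3.4d, Cuffdiff 2.2.1 and FastQC 0.11.7. The deposited table holds 772485 rows, 1 per locus and pair of groups, with 1 FPKM per group that the authors estimated over its 3 libraries. Its fold changes, test statistics, p-values, q-values and significance flags are the authors' own comparisons and were not used. The sources used here do not state the strandedness or the library scaling, so antisense and overlapping genes cannot be told apart.

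Groups follow the library titles, and 4 libraries have source or genotype labels that conflict. One FPKM per group and locus was read out, and 11929 of 51499 loci averaging at least 1 FPKM over the 6 groups were kept. Differences were taken on log2(FPKM + 1) and called past 2-fold at a size of at least 1. With 1 value per group no test was possible. A difference of comparisons was likewise not tested. The code was tested on simulated data. Python 3.11.15 with pandas 2.3.3 and numpy 2.4.6 was used.

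Locus starts in the table count from 0: after adding 1, 31821 of 50130 single-gene loci matched GENCODE M21 (GRCm38) in start and end, and 31 did without. The gene coordinates printed are those of GENCODE M21. Positions of the Zeb2 sites were also derived from GENCODE M21, and those of the Snai1 promoter are from RefSeq. Promoters and microRNAs were taken from RefSeq (GRCm38.p6), with promoters of 7 of the 10 factors used, and 3′ UTRs from GENCODE M21. Seed matches are exact matches to bases 2 to 8 in the longest 3′ UTR of a gene.

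The factors and the gene lists were chosen with earlier results of these data known. Named are all 10 factors, Ago2, up to 4 genes per list with the largest range among those with a mean of at least 1 FPKM, and the 3 loci most like each factor with a 2-fold range. Vim, Thy1, Cdh1, Myod1, Myog, Pax7, Myh11, the E proteins, Mir141 with Gm29008, Mir5129 and Zeb2os were named in addition, after their values were seen. For the lineage factors, 1 gene that the rule names is not reported here. Of the fibroblast list the summed level ran from 2432 to 3629 FPKM over the groups, but its members did not move together. The S100a4 locus, which holds other genes too, read 1967 and 1926 FPKM in Ago2+/+ DMSO and Ago2-/- thapsigargin. It read 285 and 330 FPKM in Ago2+/+ thapsigargin and Ago2-/- tunicamycin, where Col1a1 was highest. Pdgfrb ran from 0.540 FPKM in Ago2+/+ DMSO to 17.9 FPKM in Ago2-/- tunicamycin. Pseudocount, filter, fold limit and scaling were varied.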

Additional observations from a re-analysis of the deposited data

Results flagged for a closer look

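The factors Prrx2 and Snai1 moved past 2-fold in opposite directions under thapsigargin in cells of the 2 labels. For Prrx2, thapsigargin minus DMSO was 2.37 on the log2(FPKM + 1) scale under the label Ago2+/+ and -2.23 under Ago2-/-, so the changes differed by -4.60. For Snai1 the changes were 1.73 and -1.22, and differed by -2.95. With 1 value per group the difference was not tested. Both factors were low in Ago2+/+ DMSO and Ago2-/- thapsigargin, at 9.40 and 12.2 FPKM for Prrx2 and 2.90 and 4.27 FPKM for Snai1. These 2 groups form 1 of the 3 pairs of most similar groups, and neither factor was past 2-fold between them. Of all loci 4.69% moved in opposite directions in this way, so the behaviour of these 2 factors is shared by many genes.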

How the results depend on the processing

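For the 9 factors other than Tcf21, no difference changed sign past the limit in 10 comparisons under another pseudocount (0.1 or 5), rescaling of all groups to 1 common sum of FPKM, or median-of-ratios size factors. Size factors changed none of the 90 calls. Rescaling moved the median of all loci by -0.16 to 0.18 on the log2 scale and changed 3 of the 90 calls. A pseudocount of 0.1 added 3 calls, and one of 5 lost 7. The latter lowered the count of factors past 2-fold from 5 to 3 for Ago2+/+ tunicamycin against DMSO, from 3 to 1 for Ago2-/- tunicamycin against DMSO, and from 2 to 1 between labels with tunicamycin, where the share of all loci fell to 6.86%, 8.97% and 8.63%. A limit of 1.5-fold gave 8 factors for Ago2+/+ thapsigargin, 6 for Ago2-/- thapsigargin, 7 between labels with DMSO, 5 between labels with tunicamycin and 3 for Ago2-/- thapsigargin against Ago2+/+ DMSO, where 27.5%, 31.2%, 29.4%, 35.8% and 5.62% of all loci passed. A limit of 4-fold gave 1 for Ago2+/+ tunicamycin, 0 for Ago2-/- tunicamycin, 1 for Ago2-/- thapsigargin, 1 between labels with DMSO, 0 with tunicamycin and 2 with thapsigargin, where 4.74% to 5.88% of all loci passed. At 1.5-fold the count for Ago2-/- tunicamycin stayed at 3 of the 9 factors (33.3%), where 36.9% of all loci passed. The factors were thus not above the background there. The count at 1.5-fold was 7 for Ago2+/+ tunicamycin and 5 between labels with thapsigargin, where 29.2% and 28.3% of all loci passed. Fewer or more calls follow from the limit itself. No paired analysis was possible because the table holds 1 value per group, and for the same reason leaving out a library, or the 4 libraries with conflicting labels, could not be run. Depth and replicate spread are unknown, which limits every difference given here.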
